A study of Homo sapiens with 39 samples.

Results

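The response of OCI-M1 to tamibarotene was measured as the difference between 3 arrays of drug-treated cells and 3 arrays of vehicle-treated cells. OCI-M1 is an established human erythroleukemia line, that is, an acute myeloid leukemia whose cells resemble red cell precursors. These 6 arrays were chosen by their titles out of 39, and every probe set that carries a single gene symbol entered, 44988 of the 49395 on the array. They represent 18132 genes, each by whichever of its probe sets was brightest on average over the 39 arrays. The remaining 33 arrays belong to 6 other acute myeloid leukemia lines (Kasumi-1, KG-1a, MV-4-11, NOMO-1, OCI-AML3 and Sig-M5), which had been given the same agent and vehicle.

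Cells received tamibarotene (SY-1425), added at 100 nM to reach 50 nM, or DMSO, the vehicle, for 24 h. Total RNA was hybridised to Affymetrix PrimeView arrays, and the deposited values are log2 normalized intensities, so a difference of 1 is a doubling. The labels do not say whether the 3 replicates of an arm were separate cultures, so the p-values measure only the spread between these samples. OCI-M1 is a single line, and bulk RNA cannot tell fewer cells of a type from less RNA per cell.

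Tamibarotene is a synthetic retinoid that activates the retinoic acid receptor alpha. Retinoic acid receptors bind DNA with a retinoid X receptor partner at direct repeats of a short half-site, and ligand turns them from repressors into activators of their target genes. Among the best known targets are enzymes that clear retinoic acid itself, and in granulocyte precursors retinoids are known for driving maturation, whereas in red cell precursors they are known mostly for modulating growth and globin expression.

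The markers of the line went with its label. GATA1, the master regulator of the erythroid lineage, had a vehicle mean of 9.93 in OCI-M1 and of 5.87 to 6.76 in the other 6 lines. KLF1, the activator of adult globin transcription, was at 11.32 against 4.48 to 7.01, and the embryonic globin HBZ at 8.42 against 3.07 to 4.01. Of 23 measured erythroid and megakaryocyte transcription factors, 12 had their highest vehicle mean in OCI-M1, against 13.0% of all genes tested. The same held for 5 of 6 measured members of the globin list, which includes the globin chaperone AHSP. It held for 0 of 21 monocyte and macrophage markers and 0 of 15 adherent cell markers. CD14, the monocyte antigen, stood at 3.67 in OCI-M1, below its 3.82 to 6.18 in the other lines, and the granule enzyme MPO at 4.03, below 4.90 to 13.87.

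Array medians in OCI-M1 lay between 5.03 and 5.06, and arrays of the same arm correlated at 0.9940 to 0.9970. The vehicle arrays differed in a measure of RNA integrity. The beta-actin control probe sets read higher at the 3′ than at the 5′ end by 0.11, 0.52 and 0.56 in vehicle replicates 1 to 3 and by 0.10, 0.24 and 0.18 in the treated arrays, where a larger gap goes with more degraded RNA. The same difference for GAPDH was -0.14, -0.11 and -0.16 in the treated arrays and -0.11, -0.11 and -0.09 in the vehicle arrays, so that each treated array lay below each vehicle array. The arms overlapped in the actin gap and not in the GAPDH gap (two-sided exact permutation p of 0.3 and 0.1), but with 0.1 the smallest p the design allows neither could have passed a test at 0.05. The part of RNA integrity in the results was not tested beyond the fits with the actin gap, and the counts below are also given without both vehicle arrays of larger actin gap.

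Tamibarotene raised 127 genes and lowered 70 in OCI-M1, which is 1.09% of the 18132 genes tested (0.700% up and 0.386% down). The counts of called list members below stand beside these shares, at which a short list would often hold no call. The lists were chosen with earlier results of these data known, so higher shares in them are descriptions. A gene was called at a Benjamini-Hochberg adjusted p under 0.05 in limma, with the spread pooled over the 39 arrays. Most changes were small. The median change of a called gene was 0.69 among the rises and -0.62 among the falls, and 30 rises and 9 falls reached 2-fold. The median change over all genes was -0.01. In 193 of the 197 called genes the 3 treated arrays lay entirely above or below the 3 vehicle arrays, an arrangement found in 11.8% of all genes tested (5.53% with the treated arrays higher and 6.31% with them lower). With the 6 OCI-M1 arrays fitted alone 46 rises and 17 falls were called, and without the vehicle arrays of larger actin gap 103 and 32. Falls numbered 35 without vehicle replicate 3 alone.

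**Figure D1:**
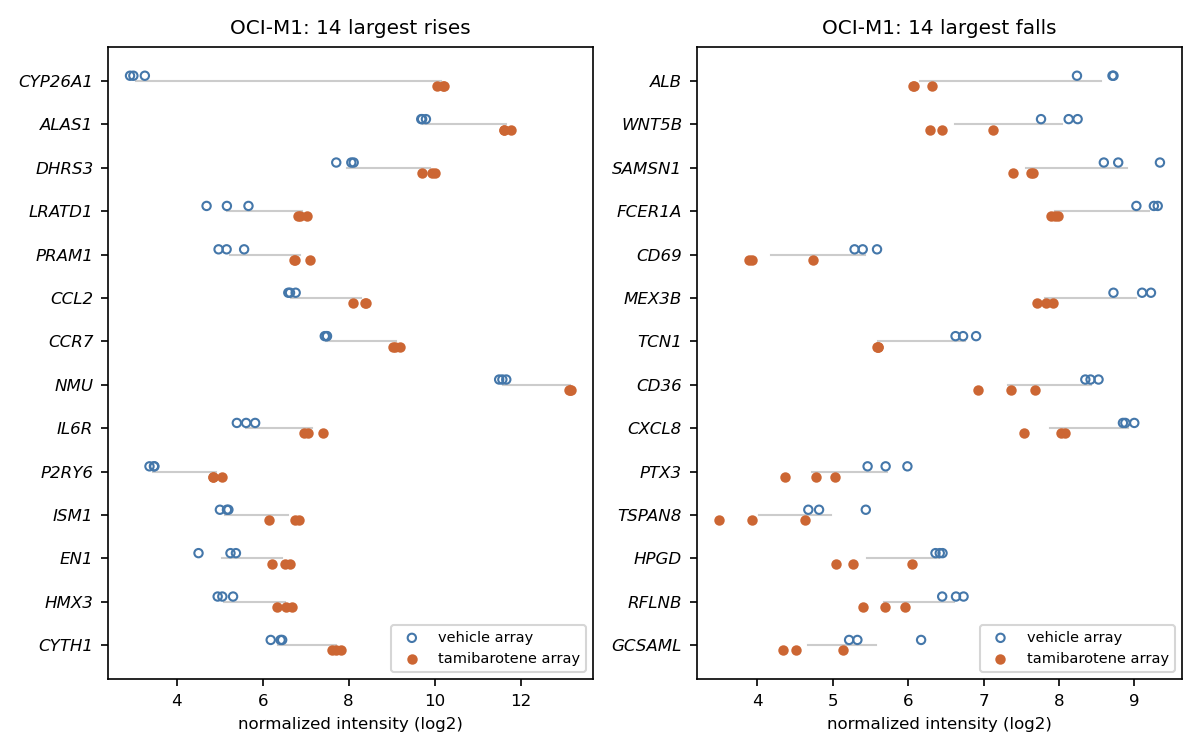
Normalized log2 intensity of each OCI-M1 array (horizontal axis) for the 14 genes with the largest rises (left) and the 14 with the largest falls (right); open circles are vehicle arrays, filled circles tamibarotene arrays, and grey lines join the arm means. CYP26A1 spans 7.10 log2 units, every other gene shown spans 2.40 or less, and in no gene shown do the arms overlap.

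CYP26A1, the cytochrome P450 that hydroxylates retinoic acid for disposal, read 10.19, 10.21 and 10.06 in the treated arrays and 3.26, 2.99 and 2.91 in the vehicle arrays. Each treated array was far above each vehicle array, and the vehicle values lay below the array medians. The rise of 7.10 ± 0.15 (SE of the fit, n = 3 and 3) was 137-fold (limma adjusted p = 3.54e-25) and the largest change of any gene tested in this line. The related hydroxylases CYP26B1 and CYP26C1 were not called, at 0.08 (95% interval -0.18 to 0.35) and -0.15.

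The stretch upstream of CYP26A1 is shown because it holds a direct repeat of the receptor half-site with spacing 5 (DR5), the arrangement retinoic acid receptors are known to prefer, and the same kind of element upstream of RARB is set beside it because that gene did not pass the test. The sequences are from RefSeq promoters of build GRCh38.p14, written 5′ to 3′ with the half-sites in capitals.
CYP26A1: acaattAGTTCAcccaaAGTTCAtcttta
RARB: gggtagGGTTCAccgaaAGTTCActcgca
The CYP26A1 element lies at chr10:93073797-93073825, read on the minus strand, 73 bases before the transcription start. That of RARB, the beta receptor and a classical retinoid target in epithelial cells, lies at chr3:25428204-25428232 on the plus strand, 36 bases before the start. RARB read 4.57, 4.46 and 4.58 with the drug and 4.58, 4.57 and 4.60 without, a change of -0.05 (95% interval -0.29 to 0.19). Its arms overlapped, so an element of the same form accompanied the largest rise in one gene and no call in the other. The other RARB probe sets were at 0.21 and 0.13, also not called, and all RARB values lay below the array medians in both arms.

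The repeat was searched on both strands in the 250 bases before each start, with the half-site taken as AGGTCA or AGTTCA and also as GGGTCA or GGTTCA. It was present in 11 of the 14425 measured genes with a promoter sequence (0.0763%) and in CYP26A1 alone among the 90 called rises that had one. The other 9 genes, BATF2, PRSS27, PHF8, ATXN1L, TRIM31, CYB5R2, PANK2, KRT40 and HROB, were not called. Repeats with spacing 1 or 2 were in 20 and 4 of all promoters searched and in 0 of the called ones, rises or falls. A match describes letters and not a bound site, and a missing match says only that these letters are not in this window.

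DHRS3, a reductase that turns retinaldehyde back into retinol, read 9.94, 10.00 and 9.71 with tamibarotene and 7.71, 8.06 and 8.12 with vehicle. All treated arrays exceeded all vehicle arrays. It rose by 1.92 ± 0.17 (3.79-fold, limma adjusted p = 6.62e-09), and its other probe sets were at 2.04 and 0.66. These were the 2 called genes among 18 measured members of retinoid metabolism. The remaining 16, including the retinol esterifying enzyme LRAT, the retinaldehyde dehydrogenases ALDH1A1, ALDH1A2 and ALDH1A3 and the binding protein CRABP2, ranged from -0.35 to 0.34.

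The receptors themselves did not pass the test. RARA, the receptor that tamibarotene targets, read 7.82, 7.89 and 7.71 in treated arrays and 7.64, 7.89 and 7.86 in vehicle arrays, and its change was 0.01 (95% interval -0.32 to 0.34). RARG was at 0.03 (-0.17 to 0.23), RXRA at -0.15 (-0.42 to 0.12) and RXRB at -0.11 (-0.35 to 0.13). None of the 14 measured receptors and cofactors was called, and their changes ran from -0.31 to 0.16. RXRA, the main dimer partner of RARA, had its lowest vehicle level of the 7 lines in OCI-M1, 6.47 (arrays 6.31 to 6.62) against means of 7.65 to 10.07, and RXRB too was lowest there, 7.85 against 8.23 to 9.10. These levels are descriptions and were not tested. The RARA vehicle mean of 7.80 lay inside the 7.17 to 9.11 of the other lines.

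Of the 26 measured members of a list of retinoic acid-inducible genes, 8 rose, 1 fell and 17 were not called, with a median change of 0.09 beside -0.01 for all genes. The share called was 34.6%, against 1.09% of all genes tested. After CYP26A1 and DHRS3 came PRAM1, an adaptor named for its regulation by the PML-RARA fusion protein, which read 6.74, 7.11 and 6.73 against 4.97, 5.57 and 5.16 and rose by 1.63 ± 0.18 (limma adjusted p = 3.88e-07). ITGAM, the CD11b chain of a leukocyte integrin, read 6.41, 6.67 and 6.28 against 4.95, 5.15 and 5.24. Its rise was 1.34 ± 0.18 (adjusted p = 1.03e-05), with 1.02 and 0.05 by its other probe sets.

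PLAAT4, a phospholipid-modifying enzyme found as a retinoid-induced tumor suppressor, read 9.56, 9.47 and 9.23 against 8.30, 8.10 and 8.15, a rise of 1.24 ± 0.14 (limma adjusted p = 8.72e-07). Arms were separate for both genes. TGM2, the tissue transglutaminase, rose by 0.95 ± 0.11 and by up to 2.02 on another probe set, and is named after its values were seen. CD38, an ectoenzyme that consumes NAD, stayed low in both arms, at 4.36, 4.01 and 3.85 against 3.32, 2.90 and 3.25, with a rise of 0.92 ± 0.12 (limma adjusted p = 1.92e-05).

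ID1, which blocks DNA binding of helix-loop-helix proteins, read 11.00, 11.03 and 10.82 against 10.49, 10.42 and 10.52 and rose by 0.47 ± 0.11. ID2, its paralogue, fell by 0.50 ± 0.10, from 8.60, 8.70 and 8.84 to 8.20, 8.29 and 8.15. The relatives thus moved in opposite directions while ID3 and ID4 were at -0.06 and 0.01. The ID1 call was lost without treated replicate 1 or 2 or vehicle replicate 2 or 3 (values 0.43 to 0.50, limma adjusted p from 0.0556 to 0.139), and that of ID2 without vehicle replicate 3 (-0.44, adjusted p = 0.0747). Both calls were also lost without both vehicle arrays of larger actin gap.

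**Figure D2:**
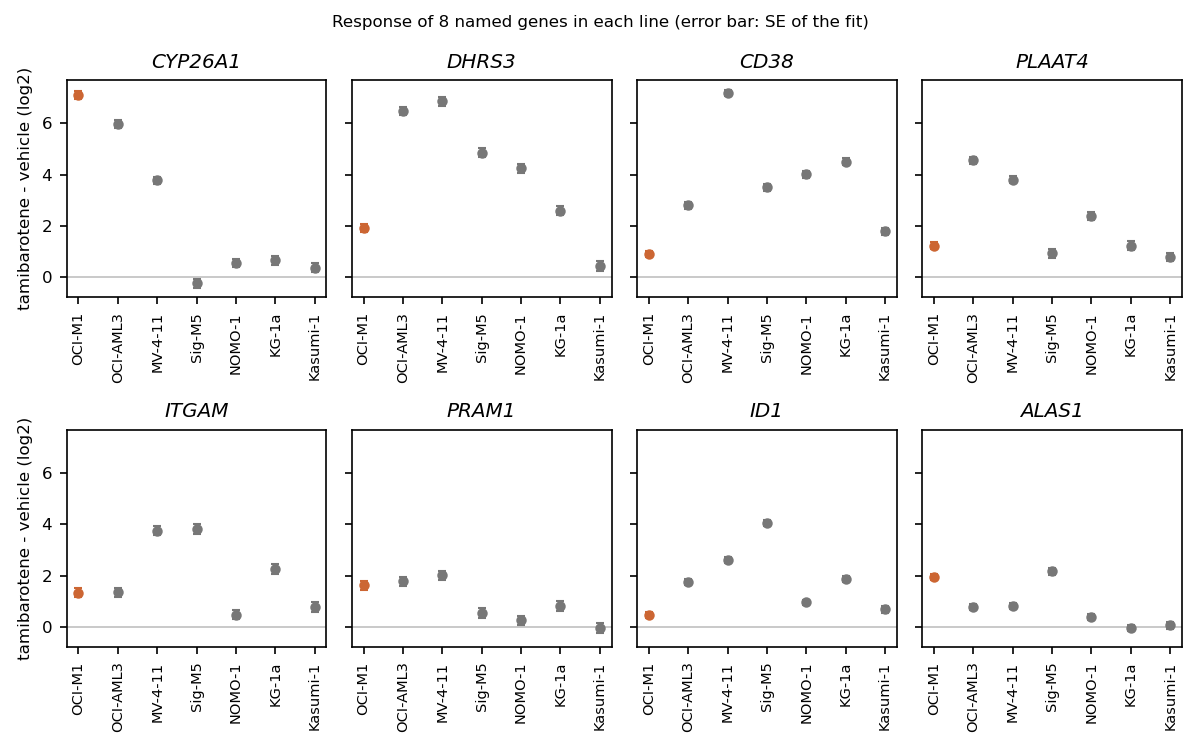
Change under tamibarotene (log2, vertical axis) of 8 genes in each of the 7 lines; points are treated minus vehicle means, error bars the SE of the fit, OCI-M1 in orange. OCI-M1 has the highest point for CYP26A1 (7.10) and the lowest for CD38 (0.92) and ID1 (0.47).

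Seen beside the other lines, the retinoid targets of OCI-M1 split into genes with a larger and genes with a smaller response. The test was the difference between the OCI-M1 change and the mean change of the other 6 lines, and it called 324 genes higher and 311 lower, 3.50% of all tested. Some comparator arrays had large actin gaps. They were 0.81 and 1.89 in the Sig-M5 vehicle arrays, against 0.31 to 0.34 with the drug, and 1.18 in Kasumi-1 vehicle replicate 2. Without these 2 lines 367 genes were called higher and 463 lower. The differences of PRAM1, ITGAM, RXRA and CTSG, given below, lost their calls in that fit. CYP26A1 changed by 5.24 more than the mean of the others (limma adjusted p = 2.73e-20). Its change was 5.97 in OCI-AML3, 3.78 in MV-4-11, 0.66 in KG-1a, 0.58 in NOMO-1, 0.38 in Kasumi-1 and -0.23 in Sig-M5, the last pair not called. PRAM1 was 0.73 above the others, a call lost without treated replicate 2 or vehicle replicate 1 or 3 (values 0.60 to 0.69, adjusted p from 0.0941 to 0.164).

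DHRS3, CD38, ID1 and PLAAT4 went the other way. CD38 responded 3.06 less than the mean of the other lines (-3.06 ± 0.13), where it rose by 1.80 to 7.18. DHRS3 was at -2.33, and its change elsewhere was smallest in Kasumi-1 (0.44) and largest in MV-4-11 (6.86). ID1 was at -1.51 and PLAAT4 at -1.05. The starting levels of these 4 genes in OCI-M1 differed. With vehicle, DHRS3 was second to Kasumi-1 (7.96 against 8.16), ID1 second to OCI-AML3 (10.48 against 10.50) and PLAAT4 second to KG-1a (8.18 against 9.56), whereas CD38 was lowest of the 7 lines at 3.16. ITGAM was at -0.73, and that call was lost without treated replicate 1 or 3 or vehicle replicate 2 or 3 (values -0.71 to -0.64, adjusted p from 0.0762 to 0.108).

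Genes that responded in several other lines included some that did not pass in OCI-M1. CLIC3, a chloride channel family member, was at 0.15 (95% interval -0.12 to 0.41) and up to 6.14 elsewhere, a difference of -3.02. The fructose transporter SLC2A5 was at 0.01 against 0.56 to 5.93 in the others, with a difference of -2.97. The lipid-presenting molecule CD1D differed by -2.69, the myeloid kinase FGR by -2.34, the leukocyte receptor LILRA5 by -2.26 and the myosin binding protein MYBPH by -2.21. In OCI-M1 the vehicle means of these 6 genes were between 3.58 and 5.54. FGR and SLC2A5 started below the span of the other lines (5.04 against 5.35 to 8.32 and 4.72 against 6.91 to 9.87), and the others started within it.

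Differences with the opposite sign arose where other lines lost a transcript and OCI-M1 did not pass the test. The intermediate filament VIM was at -0.16 (95% interval -0.56 to 0.25) and fell by up to 3.68 elsewhere (difference 1.24). IL1RN, the interleukin-1 antagonist, differed by 1.22, the stress-induced NIBAN1 by 1.11, the sialyltransferase ST6GAL1 by 0.97, the calgranulin S100A8 by 0.95 and the MYC target CDCA7 by 0.93. IL1RN lost its call when each gene was represented by its brightest probe set in OCI-M1. ST6GAL1, at 0.46 in OCI-M1 (limma adjusted p = 0.0652), was called up without vehicle replicate 3 (0.56, adjusted p = 0.0349). RXRA fell in MV-4-11, OCI-AML3 and Sig-M5 and its difference was 0.63, a call lost without treated replicate 2 or vehicle replicate 1 (0.50 and 0.55, adjusted p of 0.0925 and 0.0529).

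Of 22 measured genes of heme synthesis and iron uptake, 1 rose (4.55%, against 1.09% of all genes called). ALAS1, the housekeeping isoform of the rate-limiting first enzyme, read 11.60, 11.60 and 11.77 with the drug and 9.69, 9.71 and 9.80 with vehicle. The arms were tight and far apart. It rose by 1.93 ± 0.12 (3.81-fold, limma adjusted p = 1.36e-12), and its 4 probe sets agreed at 1.80 to 1.93. The rise exceeded the mean of the other lines by 1.23, although Sig-M5 reached 2.16. ALAS2, the erythroid isoform of the same enzyme, was at -0.24 and not called. None of the 20 further members measured, which cover the later steps of the pathway and iron uptake, was called.

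The globin list had 6 measured members out of 11, the chaperone AHSP among them, and 2 rose (33.3%, against 1.09% of all genes called). HBA1, HBA2, HBD, HBG1 and HBG2 were not among the measured genes. HBE1, the embryonic epsilon globin, read 8.87, 8.70 and 8.50 against 8.22, 7.88 and 8.10, a rise of 0.62 ± 0.12 (limma adjusted p = 0.0039). HBB, the adult beta globin, read 7.20, 7.07 and 6.83 against 6.51, 6.54 and 6.60, a rise of 0.48 ± 0.12 (adjusted p = 0.0266). Treated arrays were above vehicle arrays for both, by a narrow margin. The HBE1 call was lost without treated replicate 1 or vehicle replicate 2 (0.53 in both, adjusted p of 0.0512 and 0.0556). That of HBB was lost without any one array except treated replicate 3 (values 0.40 to 0.51, adjusted p from 0.069 to 0.199), and its other probe sets were at 0.02 and -0.19. Globin genes resemble each other in sequence, so how far probe sets share signal is uncertain. HBZ was at -0.06, HBM at -0.01, HBQ1 at 0.24 and the globin chaperone AHSP at 0.10, none of them called. Neither globin call was made without both vehicle arrays of larger actin gap.

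Genes of the red cell surface and membrane skeleton went both ways, with 3 of 23 up, 4 down and a median of -0.08. The share called was 30.4%, against 1.09% of all genes. AQP1, the water channel of red cells, read 5.89, 5.55 and 5.49 against 4.59, 4.62 and 4.47 on the probe set used (1.08 ± 0.13, limma adjusted p = 1.91e-06). Its 3 dimmer probe sets rose by 1.52, 3.02 and 3.38. On the last the treated arrays read 6.65, 6.86 and 7.03 and the vehicle arrays 3.43, 3.39 and 3.56, a 10.4-fold difference, so the probe set chosen for brightness over all lines gave the smallest rise. In the other 6 lines AQP1 ranged from -0.19 to 0.18 on the probe set used, and the difference from their mean was 1.08 (adjusted p = 5.39e-06).

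The glucose transporter SLC2A1 rose by 0.54 ± 0.11, from 9.48, 9.65 and 9.69 to 10.14, 10.26 and 10.05. EPB42, a band of the membrane skeleton, rose by 0.51 ± 0.09 from a vehicle mean of 4.01, a call lost without both vehicle arrays of larger actin gap. The fatty acid and thrombospondin receptor CD36 read 7.36, 6.93 and 7.69 with the drug against 8.42, 8.35 and 8.53, and fell by 1.10 ± 0.27 (limma adjusted p = 0.0383). Its 3 probe sets were at -1.18 to -1.09, and it rose in NOMO-1, OCI-AML3 and Sig-M5 by 1.63 to 3.14, which made its difference from the mean of the others -2.11 (adjusted p = 2.17e-05). The CD36 call in OCI-M1 was lost without any one array except treated replicate 3 (values -1.15 to -0.91, adjusted p from 0.0873 to 0.308).

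The adhesion receptor CD44 fell by 0.51 ± 0.10, a call lost without treated replicate 1 or vehicle replicate 3 (-0.44 to -0.36, limma adjusted p of 0.0779 and 0.0993). DMTN, dematin of the membrane skeleton, was lower by 0.69 (-0.69) and RHAG, the Rh-associated glycoprotein, was at -0.53. Both are named after their values were seen. Of the 4 falls in this list, 0 were called without treated replicate 1, without vehicle replicate 3 or without both vehicle arrays of larger actin gap.

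None of 23 measured erythroid and megakaryocyte transcription factors was called. GATA1 read 9.95, 9.98 and 9.78 with the drug and 9.98, 9.82 and 9.98 with vehicle, a change of -0.03 (95% interval -0.24 to 0.19). KLF1 was at 0.08 (-0.21 to 0.38). The widest changes in the list were those of FLI1 (0.46), GATA2 (-0.35) and GFI1B (-0.33). None of 21 megakaryocyte and platelet genes was called either, and their median was -0.07.

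**Figure D3:**
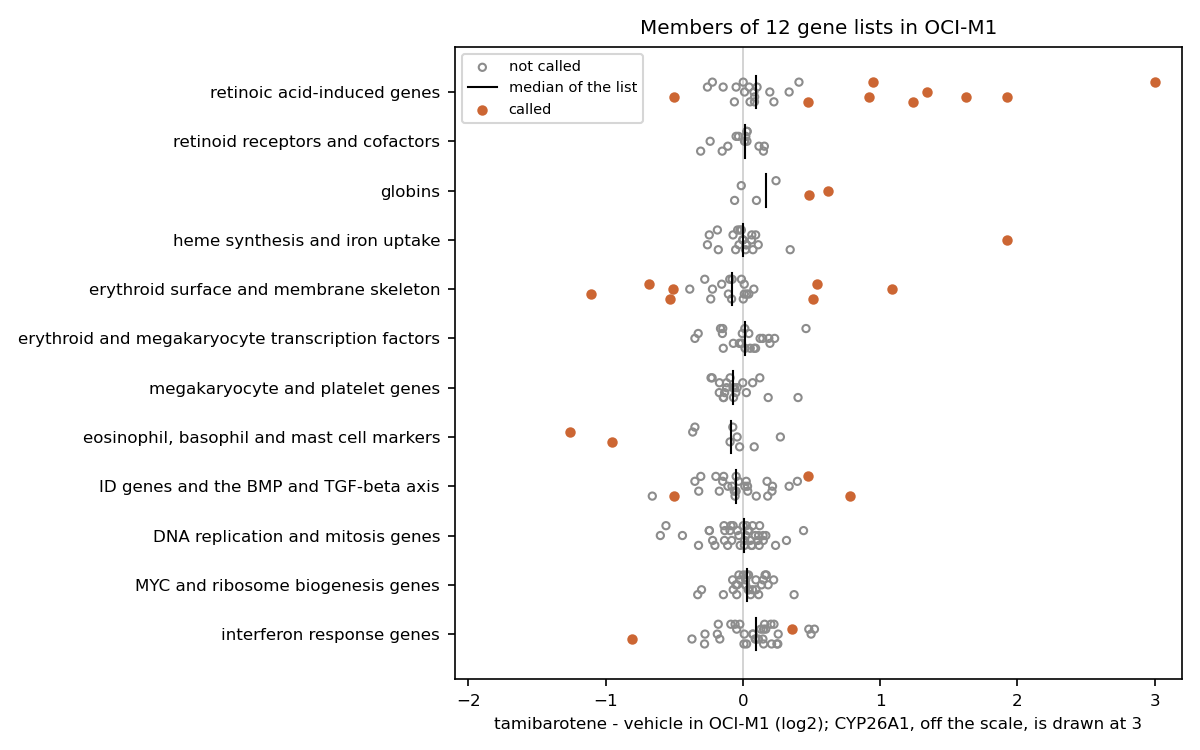
Change in OCI-M1 (log2, horizontal axis) of each measured member of 12 gene lists; filled points are called genes, open points are not called, and black bars are the list medians. CYP26A1, at 7.10, is drawn at the right edge of the axis. Of 26 retinoic acid-induced genes 8 are called up. No member of the receptor, transcription factor, megakaryocyte, replication or MYC lists is called, beside 1.09% of all genes tested.

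NMU, the neuropeptide neuromedin U, was already high at 11.67, 11.57 and 11.50 and reached 13.15, 13.18 and 13.12. It rose by 1.57 ± 0.12 (2.97-fold, limma adjusted p = 1.92e-10) and by 0.89 on its other probe set. Its vehicle means in the other lines were 2.92 to 3.23. CCR7, the chemokine receptor that guides cells to lymph nodes, read 9.02, 9.18 and 9.08 against 7.48, 7.50 and 7.44 (1.62 ± 0.15, adjusted p = 1.48e-08), and rose by 1.43 in KG-1a while falling by 1.04 in Sig-M5. The arms of both genes were clearly apart.

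CCL2, a monocyte chemoattractant, read 8.38, 8.40 and 8.09 against 6.60, 6.64 and 6.77 and rose by 1.62 ± 0.17. CXCL8, the neutrophil chemokine interleukin-8, fell in contrast by 1.03 ± 0.17 (limma adjusted p = 0.000334), from 8.88, 8.85 and 9.0 to 8.02, 7.54 and 8.08. They were the 2 called genes among 20 measured cytokine and NF-kappaB outputs (10%, against 1.09% of all genes). CXCL8 rose in KG-1a, MV-4-11 and Sig-M5 and fell in OCI-AML3, and its difference from the mean of the others was -1.42 (adjusted p = 3.69e-06).

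IL6R, the interleukin-6 receptor chain, read 6.97, 7.40 and 7.06 against 5.61, 5.82 and 5.40 and rose by 1.53 ± 0.13 (limma adjusted p = 3.06e-09). It fell by 0.42 to 1.77 in 4 other lines, Kasumi-1, MV-4-11, OCI-AML3 and Sig-M5, and the difference was 2.24. The calcium-activated potassium channel KCNN4, the Gardos channel of red cells, read 9.44, 9.64 and 9.36 against 8.17, 8.16 and 8.12, a rise of 1.33 ± 0.19. KCNN4 fell in MV-4-11, OCI-AML3 and Sig-M5 (-1.35, -2.05 and -1.84), and its difference of 2.42 was the second largest positive one among the called genes. For both genes OCI-M1 therefore moved against the lines in which they were called.

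P2RY6, a receptor for UDP, rose by 1.47 ± 0.15 from a vehicle mean of 3.44, but by 0.25 on its other probe set. LRATD1, a protein related to lecithin retinol acyltransferase, rose by 1.73 ± 0.17 from 5.18 and by 2.90 on its other probe set, where the vehicle arrays read 3.60, 3.24 and 3.28 and the treated arrays 6.17, 6.33 and 6.33. ISM1, a secreted isthmin, rose by 1.45 ± 0.16, and by 3.15 in KG-1a. CYTH1, an exchange factor for ARF proteins, rose by 1.35 ± 0.15 and by 0.97 and 1.14 on its other probe sets.

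The homeobox genes EN1 and HMX3 rose from low levels. EN1 read 6.53, 6.64 and 6.22 against 5.25, 4.51 and 5.38 (1.41 ± 0.14, limma adjusted p = 4.61e-08), and HMX3 read 6.54, 6.68 and 6.34 against 5.31, 5.06 and 4.95 (1.41 ± 0.15, adjusted p = 1.96e-07). Vehicle means of EN1 in the other lines were 2.97 to 3.11, and their changes were between -0.12 and 0.18. None of 13 measured HOX and PBX genes was called, and their median was -0.11. HLX, a homeobox factor, rose by 0.79 ± 0.12, while RUNX3, a runt domain factor, was lower by 0.67 (-0.67 ± 0.17) on 1 of its 4 probe sets, the others reaching 0.09. The RUNX3 call was lost without treated replicate 2 or 3 or vehicle replicate 1 or 3 (values -0.64 to -0.55, adjusted p from 0.169 to 0.257). Both the HLX and the RUNX3 call were lost without both vehicle arrays of larger actin gap.

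The largest fall was in albumin. ALB, the main plasma protein made by liver, read 6.06, 6.08 and 6.32 with the drug and 8.72, 8.24 and 8.71 with vehicle. Every treated array lay far below the lowest vehicle array. ALB fell by 2.40 ± 0.15 (5.30-fold, limma adjusted p = 3.01e-12), and its 2 other probe sets were at -1.99 and -1.42. The vehicle means of ALB in the other lines were 3.08 to 3.45, and their changes were between -0.07 and 0.19, so OCI-M1 differed from their mean by -2.45 (adjusted p = 6.12e-12).

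WNT5B, a secreted WNT ligand, read 6.45, 7.13 and 6.29 against 7.76, 8.13 and 8.25 and fell by 1.42 ± 0.17 (limma adjusted p = 1.25e-06), with -0.67 at the other extreme of its 3 probe sets. SAMSN1, an adaptor that restrains lymphocyte and mast cell activation, read 7.63, 7.39 and 7.66 against 9.34, 8.60 and 8.79 and fell by 1.35 ± 0.27. The high vehicle replicate 1 mattered to it, for without that array the change was -1.13 (adjusted p = 0.0598). The other SAMSN1 probe set was at -0.99 and not called (limma adjusted p = 0.377 with every probe set tested). SAMSN1 rose in OCI-AML3 and Sig-M5, and the difference from the mean of the others was -1.85.

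FCER1A, the alpha chain of the high-affinity IgE receptor of mast cells and basophils, read 7.99, 7.89 and 7.94 against 9.31, 9.03 and 9.26, a fall of 1.26 ± 0.12 (limma adjusted p = 4.11e-08). HPGD, which degrades prostaglandins, read 6.05, 5.27 and 5.05 against 6.42, 6.46 and 6.36 and fell by 0.96 ± 0.18. They were the 2 members down among 10 measured eosinophil, basophil and mast cell markers, none of which rose (20% called, against 1.09% of all genes). The eosinophil granule protein PRG2 was at -0.37, GATA2 at -0.35, the mast cell protease CPA3 at -0.09 and the histamine enzyme HDC at 0.08, all uncalled. The HPGD call was lost without both vehicle arrays of larger actin gap.

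TCN1, the vitamin B12 binder of secondary granules, fell by 1.16 ± 0.13 (limma adjusted p = 5.59e-07), from 6.73, 6.63 and 6.90 to 5.58, 5.60 and 5.60, as the single called member of 19 secondary and tertiary granule genes. Among 13 primary granule genes the protease PRTN3 rose by 0.84 ± 0.13 and the protease CTSG was lower by 0.50 (-0.50 ± 0.12), the latter from a vehicle mean of 3.99 and with its call lost without treated replicate 1 or 3 or vehicle replicate 1 or 3 (values -0.51 to -0.41, adjusted p from 0.0663 to 0.2). CTSG fell further elsewhere, by 2.39 in Sig-M5, so that its difference was 0.53, a call lost without treated replicate 2 or vehicle replicate 2 (0.47 and 0.36, limma adjusted p of 0.0818 and 0.134). Of 21 monocyte and macrophage markers, S100A9 alone was called, at -0.37 from a vehicle mean of 3.53, and its call was lost without any one array except vehicle replicate 1 (values -0.38 to -0.31, adjusted p from 0.0792 to 0.28).

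MEX3B, an RNA-binding protein, fell by 1.20 ± 0.18 and CD69, an early activation antigen, by 1.24 ± 0.22. The CD69 value came from 1 of 3 probe sets, the others being at -0.16 and 0.05. PTX3, a soluble pattern recognition protein, fell by 0.99 ± 0.23, TSPAN8, a tetraspanin, by 0.96 ± 0.18, RFLNB, a filamin regulator, by 0.93 ± 0.11 and GCSAML by 0.91 ± 0.20. PTX3 lost its call without treated replicate 2 or 3 or vehicle replicate 2 or 3 (values -1.02 to -0.81, limma adjusted p from 0.0675 to 0.194) and GCSAML without treated replicate 1 or 2 or vehicle replicate 1 (-0.83 to -0.61, adjusted p from 0.0918 to 0.177). CD69, MEX3B, PTX3 and TSPAN8 were not called without both vehicle arrays of larger actin gap.

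Among 20 integrins and adhesion molecules, ITGAM and the tetraspanin CD53 (0.50 ± 0.09) rose and CD44 fell. The other CD53 probe set, the brighter one in OCI-M1, was at 0.47 (limma adjusted p = 0.774 with every probe set tested). The CD53 call was also lost with OCI-M1 fitted alone. FERMT1, a kindlin that activates integrins, rose by 0.71 ± 0.15 while it fell in Kasumi-1, MV-4-11, OCI-AML3 and Sig-M5, a difference of 1.48. The FERMT1 call was lost without treated replicate 2 or 3 or vehicle replicate 2 (0.62 to 0.65, limma adjusted p from 0.0531 to 0.0706), and its 5 probe sets ran from -0.14 to 0.71. On its brightest probe set in OCI-M1 the change was 0.08 and not called. The difference from the other lines also lost its call on that probe set (limma adjusted p = 0.245). In the BMP and TGF-beta list, the activin receptor ACVR1 rose by 0.78 ± 0.15 with ID1, ID2 fell and 26 of 29 were not called. The 4 probe sets of ACVR1 ran from 0.15 to 0.78, and its call was lost with OCI-M1 fitted alone (limma adjusted p = 0.069). The BMP ligands and SMAD genes of that list were among the uncalled.

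Of the interferon response genes 5.71% were called, against 1.09% of all genes tested. IRF1, a transcription factor, rose by 0.36 ± 0.09 and RSAD2, the antiviral enzyme viperin, fell by 0.81 ± 0.15 among 35 interferon response genes with a median of 0.10. Neither was called without both vehicle arrays of larger actin gap. IRF1 lost its call whichever OCI-M1 array was left out (values 0.32 to 0.38, limma adjusted p from 0.0594 to 0.207), and in 5 other lines it rose by 0.51 to 1.79 (difference -0.79). None of 15 MHC class I and 14 MHC class II genes was called, with medians of 0.06 and 0.01.

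Growth genes did not pass the test, but at the 1.09% called over all genes tested, lists of their size would often hold no call. None of 41 DNA replication and mitosis genes, 30 MYC and ribosome biogenesis genes, 13 cell cycle inhibitors, 21 p53 targets, 18 cholesterol and fatty acid synthesis genes and 24 amino acid and ER stress genes was called. Their medians lay between -0.03 and 0.03. MYC read 12.74, 12.97 and 13.00 with the drug and 12.57, 12.74 and 12.74 with vehicle, a change of 0.22 (95% interval 0.02 to 0.43, limma adjusted p = 0.628). In the BCL2 family 1 of 20 was called, BNIP3, a mitophagy receptor, at -0.51 ± 0.11, and its call was lost without treated replicate 2 or 3 or vehicle replicate 3 (-0.49 to -0.40, adjusted p from 0.0551 to 0.115). BNIP3 was also the fall among 22 hypoxia and glycolysis genes, in which SLC2A1 and NDRG1 (0.42 ± 0.11) rose. NDRG1 lost its call whichever OCI-M1 array was left out (0.39 to 0.46, adjusted p from 0.0661 to 0.221) and with the replicate number as a block (adjusted p = 0.0549).

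Of 19 progenitor antigens and cytokine receptors CD47, the signal that restrains phagocytes, was lower by 0.34 (-0.34 ± 0.08) and the rest were uncalled. CD47 lost its call whichever OCI-M1 array was left out (-0.36 to -0.30, limma adjusted p from 0.0675 to 0.237). None of 14 lymphocyte markers, 15 adherent cell markers and 11 reference genes was called, with medians of -0.01, 0.03 and 0.04.

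**Figure D4:**
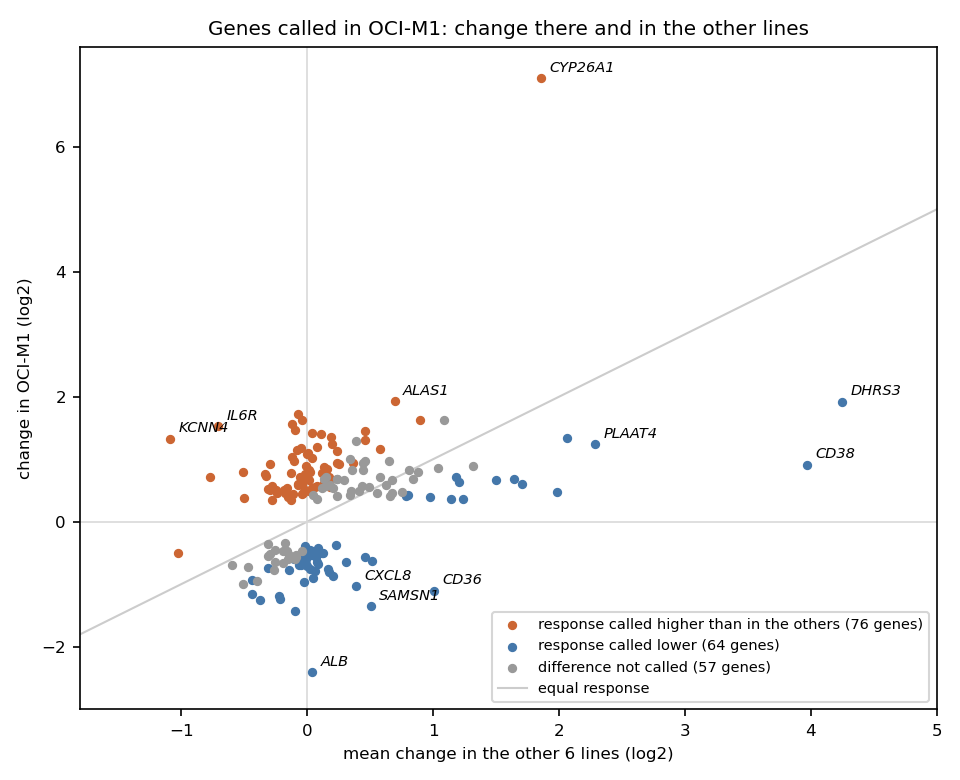
Change in OCI-M1 (vertical axis, log2) against the mean change in the other 6 lines (horizontal axis, log2) for the 197 genes called in OCI-M1; colours give the call of the difference and the grey diagonal marks equal responses. CYP26A1 stands alone at the top, DHRS3 and CD38 lie far to the right below the diagonal, and 75 of 127 rises are called higher than in the other lines.

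The called genes overlapped only in part with the responses of other lines. Of the 127 rises, 75 exceeded the mean of the other lines, 15 fell short of it and 37 were not called either way, where 1.79% of all genes tested were called higher and 1.72% lower. The comparison includes the OCI-M1 change that chose these genes, so the shares are a description. Of the 70 falls, 49 were lower than that mean, 1 (CTSG) was higher and 20 were uncalled. Of the rises, 4 were called up in all 6 other lines, namely CD38, ID1, PLAAT4 and MYADM, the last named after its values were seen, and 50 were called up in none. Of the falls, 35 were called down in no other line and 4 in 3. MV-4-11 and OCI-AML3 each shared 54 of the OCI-M1 rises (42.5% of these, and 6.90% and 5.42% of their own). Sig-M5 shared 43 (33.9% of these, and 2.79% of its own) and NOMO-1 33 (26.0% and 6.57%). KG-1a shared 25 (19.7% and 11.4%) and Kasumi-1 8 (6.30% and 9.20%). Over all 18132 genes tested, 783 were called up in MV-4-11, 997 in OCI-AML3 and 87 in Kasumi-1. An opposite call in at least 1 other line was found for 47 rises and 22 falls. Many of these calls came from Sig-M5, where 34 OCI-M1 rises were called down and 13 OCI-M1 falls up. In each remaining line such rises numbered 1 to 15 and such falls 1 to 7. Sig-M5 also had 3333 genes called down and 1541 up among the 18132 tested. Its vehicle arrays had actin gaps of 0.81 and 1.89, and the part of RNA integrity in its opposite calls was not tested.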

How the data were processed

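The deposited values are log2 normalized intensities. RMA and affy are named in the submitters' processing notes without a version. They were used as deposited, with no further normalization. Of 49395 probe sets, 1832 name several symbols, 2473 none and 102 are controls, and these were left out of the gene test. Symbols are those of the platform annotation. 0 columns of sample values were unused. Precision is limited by the number of arrays.

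limma 3.58.1 (in R 4.3.3) fitted the 14 group means over 39 arrays, with 25 residual degrees of freedom, and Benjamini-Hochberg adjustment ran over 18132 genes. The contrasts were tamibarotene minus vehicle in OCI-M1, and that change minus the unweighted mean change of the other 6 lines. Errors are SE of the fit, and intervals are 95% on its moderated degrees of freedom. The fit was tested on simulated data with independent noise and the same spread of a gene in every line. Those data held no difference in RNA integrity and no pairing of replicates, so the test does not bear on either. Plots used Python 3.11.15, matplotlib 3.10.9 and pandas 2.3.3.

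The comparison, its members and the 32 gene lists were chosen with earlier results of these data known. Named genes are the 14 largest rises and falls without overlap of the arms, up to 4 called members of each list by adjusted p, 15 fixed retinoid, erythroid and growth genes, and, against the other lines, the 8 largest differences of each sign among genes called in OCI-M1 and the 6 largest among those not called. Deviations of same-numbered arrays from their arm means correlated at 0.371, 0.256 and 0.118, all above 0.1, the limit set for taking the numbers as pairs. Treated replicate 2 and vehicle replicate 3, of unlike number, correlated at 0.158. The main fit left the pairing out. It entered only as the replicate block among the alternatives, with 144 rises and 80 falls. The labels do not state this pairing. Promoter sequences are RefSeq's of GRCh38.p14, with 14425 of 18132 genes matched by symbol.

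Alternatives were the replicate block, leaving out each OCI-M1 array, OCI-M1 alone, quantile normalization, other choices of probe set, dim genes left out, the actin gap as a covariate, array weights, a trended robust fit, a minimum fold of 2 and a fit lacking Kasumi-1 and Sig-M5. Leaving out both vehicle arrays of larger actin gap was added after the data were seen, as was the count of probe sets with several or no symbols.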

Additional observations from a re-analysis of the deposited data

Results flagged for a closer look

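The change in OCI-M1 differed from the mean change of the other 6 lines, by the limma test of the difference, for 56 named genes. Genes of retinoid handling stood at both ends, CYP26A1 at 5.24 and DHRS3 at -2.33, and the receptor RXRA was at 0.63. Of the other retinoid target genes named, CD38 was at -3.06, ID1 at -1.51, PLAAT4 at -1.05, ITGAM at -0.73 and ID2 at -0.63, while PRAM1 was at 0.73.

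Genes of red cells lay on both sides, with ALAS1 at 1.23, AQP1 at 1.08, EPB42 at 0.52, HBE1 at 0.49, HBB at 0.47, the Gardos channel KCNN4 at 2.42, CD44 at -0.56 and CD36 at -2.11. Receptors and secreted factors included IL6R (2.24), NMU (1.69), CCR7 (1.66), P2RY6 (1.57), IL1RN (1.22) and ISM1 (0.99) above 0, and WNT5B (-1.33), CXCL8 (-1.42), FCER1A (-0.88) and ALB (-2.45) below it.

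Transcription factors and signalling genes above 0 were EN1 (1.38), HMX3 (1.30), FERMT1 (1.48), CYTH1 (1.16) and ACVR1 (0.90), and those below it were IRF1 (-0.79) and SAMSN1 (-1.85). Of the granule and myeloid genes, PRTN3 (0.68), CTSG (0.53) and S100A8 (0.95) were above 0, and S100A9 (-0.60), TCN1 (-0.72), CD1D (-2.69), FGR (-2.34), LILRA5 (-2.26) and MYBPH (-2.21) were below it. The others above 0 were LRATD1 (1.80), VIM (1.24), NIBAN1 (1.11), ST6GAL1 (0.97) and CDCA7 (0.93). The others below it were CLIC3 (-3.02), SLC2A5 (-2.97), CD69 (-1.03), RSAD2 (-0.98), MEX3B (-0.97), GCSAML (-0.95), TSPAN8 (-0.94) and RFLNB (-0.49).

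The call of CD69 was lost without treated replicate 1 or 2 or vehicle replicate 3 (-0.95 to -0.88, limma adjusted p from 0.0562 to 0.0817). GCSAML lost it without treated replicate 2 or vehicle replicate 1 (-0.79 to -0.65, adjusted p of 0.0818 and 0.0915), and RFLNB without treated replicate 3 or vehicle replicate 2 or 3 (-0.48 to -0.35, adjusted p from 0.0541 to 0.126). Among the red cell genes, the difference of HBB lost its call without any one array except treated replicate 3 (0.39 to 0.49, adjusted p from 0.0577 to 0.153). HBE1 lost it without treated replicate 1 or 2 or vehicle replicate 2 or 3 (0.40 to 0.50, adjusted p from 0.0716 to 0.180). ITGAM lost it without treated replicate 1 or 3 or vehicle replicate 2 or 3 (-0.71 to -0.64, adjusted p from 0.0762 to 0.108), and PRAM1 without treated replicate 2 or vehicle replicate 1 or 3 (0.60 to 0.69, adjusted p from 0.0941 to 0.164). CTSG lost it without treated replicate 2 or vehicle replicate 2 (0.47 and 0.36, adjusted p of 0.0818 and 0.134), and RXRA without treated replicate 2 or vehicle replicate 1 (0.50 and 0.55, adjusted p of 0.0925 and 0.0529). ITGAM, PRAM1, CTSG and RXRA also lost the call in the fit lacking Kasumi-1 and Sig-M5. Without both vehicle arrays of larger actin gap, the differences of CD44, EPB42, ID2, MEX3B, S100A9, TCN1 and TSPAN8 lost their calls. Those of CD69, CTSG, HBB, HBE1, ITGAM and RFLNB were lost there too. FERMT1, IL1RN and RFLNB lost the call with the brightest probe set in OCI-M1.

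For 3 genes the vehicle means of the other lines were near the bottom of the scale, at 2.92 to 3.23 for NMU, 2.58 to 2.99 for TSPAN8 and 3.10 to 3.36 for LRATD1. In OCI-M1 itself the vehicle means of IL1RN and S100A8 were low, at 3.79 and 4.22.

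Among probe sets left out of the gene test, those with several symbols gave 9 rises and 7 falls in OCI-M1 out of 1832 (0.873%), and those with no symbol 18 rises and 9 falls out of 2473 (1.09%), by limma over every probe set that is not a control. Probe sets of a single symbol were called in 0.996% of cases.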

How the results depend on the processing

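Among 53 named genes called in OCI-M1, 25 were called under every alternative but a minimum fold of 2 and 28 lost the call under at least 1 of those others, and none of the 53 changed sign. CYP26A1 stayed between 6.90 and 7.20, ALAS1 between 1.84 and 1.97 and ALB between -2.57 and -1.94. Of 56 named differences from the other lines that were called, 38 kept their call under every alternative but a minimum fold of 2 and 18 lost it, again with no change of sign. At a minimum fold of 2, 27 of the 53 genes and 32 of the 56 differences were called. Of the 197 genes called, 62 were called the same way with OCI-M1 fitted alone, 192 with the replicate block and 89 without both vehicle arrays of larger actin gap. Under the brightest probe set in OCI-M1, 2 of them changed sign.

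The counts of 127 rises and 70 falls became 46 and 17 with OCI-M1 alone, 232 and 162 with array weights, 30 and 9 at a minimum fold of 2, and 283 and 162 with every probe set tested. Falls numbered 32 without both vehicle arrays of larger actin gap, where 76.3% of the calls were rises, against 64.5% before. Leaving out 1 OCI-M1 array gave 86 to 132 rises and 35 to 86 falls, the fewest falls without vehicle replicate 3. With the replicate block the counts were 144 and 80, and of the named genes NDRG1 alone lost its call in OCI-M1 under it.

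Against the other lines, the 324 higher and 311 lower differences became 710 and 534 with array weights, 27 and 60 at a minimum fold of 2, 510 and 638 with every probe set tested, and 215 and 147 without both vehicle arrays of larger actin gap. In the fit lacking Kasumi-1 and Sig-M5 they were 367 and 463. Leaving out 1 OCI-M1 array gave 170 to 328 higher and 225 to 302 lower differences. The fewest higher ones came without treated replicate 2, followed by 214 without vehicle replicate 3. A minimum fold shrinks counts by construction, and testing every probe set adds features. The cause of the other shifts was not tested. Intensity limits the genes near the bottom of the scale, where no detection call was used.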

Other observations

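Called genes were found side by side on chromosomes. Among 18102 measured genes placed by RefSeq gene order, 12 neighbouring pairs had both members called in OCI-M1, and in all 12 the members moved in the same direction. HMX3 (1.41) stood between HMX2 (1.10), its homeobox paralogue, and ACADSB (0.68), a mitochondrial dehydrogenase. ALB (-2.40) was next to AFP (-0.61), the fetal albumin relative, whose treated arrays read 3.38, 2.76 and 2.75 against 3.71, 3.42 and 3.59. PLAAT4 (1.24) was next to LGALS12 (1.30), a galectin. HBB (0.48) was next to HBE1 (0.62) among the measured genes, which do not include HBD, HBG1 or HBG2.

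The other pairs were POC1A and ALAS1 (0.51 and 1.93), CHCHD6 and PLXNA1 (0.47 and 0.92), TMEM156 and KLHL5 (1.28 and 0.83), HIVEP2 and AIG1 (0.83 and 0.72), TLNRD1 and CFAP161 (0.72 and 0.63), CLECL1 and CD69 (-0.56 and -1.24) and PTPRR and TSPAN8 (-0.50 and -0.96). Whether 12 pairs exceed what gene order alone gives was not tested, and the genes outside the naming rule were named after their values were seen.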
